A study of Homo sapiens with 9 samples.

Results

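Chaperones are proteins that help other proteins fold, hold unfolded ones in solution and pass damaged ones on for degradation. A set of 42 chaperone and folding genes was followed on arrays of PANC-1 cells, an established human line from a pancreatic carcinoma, among 19775 genes that the arrays name with a probe set of their own. The genes form a list set by name, drawn up with earlier results of these data known: 18 of the cytosolic heat shock system, 3 of mitochondria, 20 of the endoplasmic reticulum (ER), and HSF1, the transcription factor that switches the heat shock genes on. Exposure to BRD7552, a small molecule given at 5 uM, lasted 72 h on 3 arrays and 6 h on 3 others, and 3 arrays hold cells given DMSO, its solvent, for a time the labels do not state. BRD7552 had been described as an inducer of PDX1, a pancreatic transcription factor. The comparisons asked how far each chaperone transcript stood from solvent after long and after short exposure, and whether the cytosolic and the ER genes moved alike. The same 3 DMSO arrays served both comparisons with solvent, and exposure and time in culture cannot be told apart. Nothing in the labels ties replicates to separate cultures, and a p-value then covers only the spread between these samples. With 3 arrays in each group, the number of arrays limits the precision.

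In the cytosol, HSP70 proteins bind exposed stretches of unfolded proteins, HSP40 proteins (the DNAJ genes) bring the clients and start the ATP cycle, HSP110 proteins and BAG proteins release them, small heat shock proteins (the HSPB genes and CRYAB) hold aggregating clients, and HSP90 finishes kinases and receptors. Their genes are switched on by HSF1 when unfolded protein accumulates. In the ER lumen the same task falls to BiP (HSPA5), GRP94 (HSP90B1), lectin chaperones and disulfide isomerases, and their genes are raised by the unfolded protein response through ATF6, XBP1 and ATF4. Secretory pancreatic cells are known for a high load on the ER branch.

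Values are the deposited signals of probe sets, short groups of array probes for 1 transcript, on a linear scale. A gene was read from its brightest probe set and tested on the log2 scale with limma over all 12678 genes above a floor signal of 17.8. It was called, and is said to have risen or fallen, when its Benjamini-Hochberg adjusted p was below 0.05. Of the 42 genes, 38 had a probe set of their own and all 38 passed the floor: 14 cytosolic, 3 mitochondrial, 20 of the ER, and HSF1. CRYAB was the dimmest, with a mean signal of 23.7. HSPA1A, HSPA1B and HSPA8 were read only by probe sets that the platform table lists for several genes, which are described apart. AHSA1 was not analysed here.

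After 72 h, 18 of the 38 genes were called against DMSO. Of these, 3 rose, where 8.33% of all tested genes rose, and 15 fell, where 18.3% of all tested genes fell: the share that rose was near that of all genes and the share that fell above it. For 24 of the 38 every 72 h array was on 1 side of every DMSO array, which was so for 36.9% of all genes. After 6 h, 1 gene was called against DMSO, HERPUD1, which rose, where 0.363% of all genes rose and 0.11% fell. With HERPUD1, 7 of the 38 had an unadjusted p under 0.05 at 6 h, as did 582 of all 12678 genes. At 6 h 9 of the 38 did not overlap with DMSO, against 12.2% of all genes. Between the times, 16 of the 38 were lower at 72 h than at 6 h and 0 were higher, where 16.7% of all genes fell and 7.28% rose. For 22 of the 38 the groups were free of overlap, against 33.7% of all genes.

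The share of lower calls depended on how arrays were scaled. Among all genes called at 72 h against DMSO, 68.7% were lower with the values as deposited, 60.7% with each array centred on its median, 54.3% after quantile normalization and 52.5% after cyclic loess. Replicates 2 and 3 of the 72 h group had upper quartiles of signal of 97.5 and 99.7, where the remaining 7 arrays had 112 to 119.1. Leaving out both of those arrays, an alternative chosen after seeing the data, left only replicate 1 at 72 h. The median log2 difference from DMSO was then -0.24 over the cytosolic genes, -0.033 over the ER genes and 0.0024 over all genes. The ACTB 3' to 5' probe ratio, a sign of RNA quality, was 2.07 to 2.21 on 72 h arrays, 1.74 to 2.05 on 6 h arrays and 1.91 to 2.01 on DMSO arrays. The epithelial markers KRT7, KRT8, KRT18 and KRT19 were all above the floor, with a summed signal of 25403 to 27161 at 72 h, 32243 to 32415 at 6 h and 32015 to 32776 on DMSO arrays. Of the leukocyte markers 0 of 3 named ones were above the floor, of the endothelial markers 1 of 3, of the fibroblast markers 2 of 4 and of the acinar markers 1 of 2. The part of these measures in the results was not tested. In such bulk RNA, fewer cells of a kind and less RNA per cell cannot be told apart.

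After long exposure the counts of the cytosolic and of the ER genes were unlike, a difference that was not tested. All 14 tested cytosolic genes had lower means at 72 h than on DMSO arrays: 9 fell, 0 rose, and 5 were not called by limma, of which 0 had an unadjusted p under 0.05. The 9 include CRYAB, whose 72 h mean of 17.3 lay under the floor of 17.8 and which passed the filter through the other groups. Under a stricter filter that leaves CRYAB out, 8 of 13 fell, and of all 10377 genes kept 3474 were called, 68.3% of them lower. Over all 12678 genes, 7919 had negative values, 18.3% fell and 8.33% rose. The cytosolic median log2 difference was -0.25, beside -0.062 over all genes tested. Of the 20 ER genes 3 rose, 6 fell and 11 were not called, with a median of -0.046 and a range of -0.71 to 0.35. None of the 3 mitochondrial genes was called at 72 h against DMSO, with a median of -0.045, and 1 of them had an unadjusted p under 0.05. At 6 h the medians were -0.002 in the cytosol and 0.052 in the ER, where 16 of 20 genes had positive values, against 6279 of 12678 over all genes. Under the 3 other scalings none of these 14 cytosolic genes rose at 72 h, and 5 to 9 fell. Over all genes, centred arrays, quantile normalization and cyclic loess gave 2086, 3632 and 3638 calls, of which 60.7%, 54.3% and 52.5% were lower. The shared probe sets of HSPA1A, HSPA1B and HSPA8 are not in these counts.

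Array by array, the cytosolic median was -0.239, -0.235 and -0.272 log2 units from the DMSO mean at 72 h, -0.086, 0.056 and 0.032 at 6 h, and -0.052, 0.011 and 0.017 on the DMSO arrays themselves. The 3 arrays of the 72 h group lay below all 6 others. The ER median was -0.033, -0.064 and -0.05 at 72 h, 0.055, 0.083 and 0.053 at 6 h, and 0.013, -0.009 and -0.003 on DMSO arrays. Here the 72 h arrays were also the lowest, by a smaller distance, and the 6 h arrays the highest. The ER median exceeded the cytosolic one by 0.171 to 0.222 on 72 h arrays, by 0.021 to 0.141 on 6 h arrays, and by -0.02 to 0.065 on DMSO arrays. The plot of medians by array shows both groups of genes beside all genes tested.

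**Figure D1:**
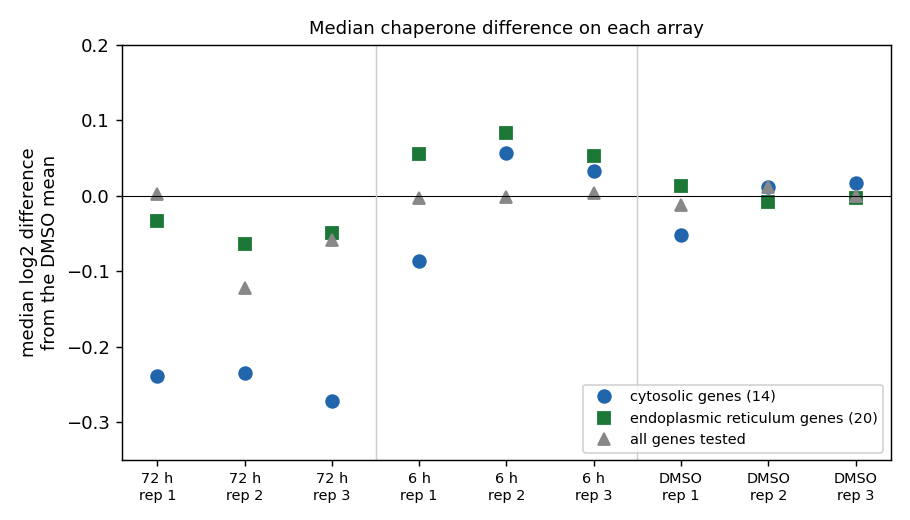
Median log2 difference from the DMSO mean (y axis) of the 14 cytosolic genes, the 20 ER genes and all genes tested, on each of the 9 arrays (x axis, 72 h, 6 h, DMSO). The cytosolic medians of the 72 h arrays lie between -0.272 and -0.235, below the ER medians of the same arrays and below every array of the other groups.

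HSF1, the regulator, read 216, 189.7 and 172 on the 72 h arrays, 209, 226 and 200.1 on the 6 h arrays, and 229.8, 217 and 223 on the DMSO arrays. The 72 h arrays lay below the DMSO arrays by a narrow margin and overlapped the 6 h arrays. The log2 difference from DMSO was -0.22 (standard error of the limma estimate, SE, 0.092) at 72 h, with a limma adjusted p of 0.0984, so HSF1 was not called. Without 72 h replicate 1, the array with its highest value in that group, it was called, as were HSP90AA1, DNAJB4 and SDF2L1. The 72 h arrays then left, replicates 2 and 3, are those with the lower upper quartiles. Over all genes 4224 were then called, 78.1% of them lower, against 3378 and 68.7% with all arrays.

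Among holding chaperones of the cytosol, HSPB8, a small heat shock protein that works with BAG3 to send misfolded proteins to autophagy, had the largest change of all members at 72 h against DMSO. Its signal was 82.1, 61.1 and 50.9 on 72 h arrays, 107, 144 and 141 on 6 h arrays, and 119, 144 and 147 on DMSO arrays. Every 72 h array was below every other array. HSPB8 fell by 1.10 log2 units (SE 0.166) at 72 h, a ratio of 0.466 to DMSO (95% interval 0.365 to 0.595, limma adjusted p = 0.000181). HSPB1, the small heat shock protein HSP27, read 1416, 1639 and 1536 at 72 h, 2069.7, 2066 and 1793 at 6 h, and 1738, 1843 and 2062 on DMSO arrays. The 72 h arrays were the 3 lowest. HSPB1 fell by 0.30 log2 units (SE 0.0702, limma adjusted p = 0.00568), a call lost when arrays were centred on their medians. CRYAB, the small heat shock protein alphaB-crystallin, read 18.1, 16.2 and 17.5 at 72 h, 22.4, 37.1 and 22.5 at 6 h, and 23.2, 24.9 and 31.0 on DMSO arrays. Its 72 h mean of 17.3 was under the floor of 17.8, and CRYAB passed the filter, which uses the mean over all 9 arrays, through the other groups. It was called lower (limma adjusted p = 0.0308), in 11 of 20 alternative settings too, but the size of the difference is not measured. Under a stricter filter that leaves CRYAB out, 8 of 13 cytosolic genes fell.

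Several HSP40 genes fell with them. DNAJB6, an HSP40 known for keeping polyglutamine peptides from aggregating, read 1415, 1414 and 1279 on 72 h arrays, 1773, 1876 and 2129 on 6 h arrays, and 2111, 2107 and 2115 on DMSO arrays. The 72 h arrays stood well below the others, while the 6 h and DMSO arrays overlapped. DNAJB6 fell by 0.63 log2 units (SE 0.0594), to 0.648 of the DMSO level (limma adjusted p = 2.56e-06). A probe set listed for TMEM135 and DNAJB6 together went the other way and was called higher. Its change was 0.377 to 0.431 over the alternative settings. DNAJB1, the heat-inducible partner of HSP70, read 1129.5, 1128 and 995 at 72 h, 1482, 1512 and 1487 at 6 h, and 1384, 1447 and 1430.02 on DMSO arrays. No group overlapped another: the 6 h arrays were the highest and the 72 h arrays the lowest. DNAJB1 fell by 0.39 log2 units at 72 h (SE 0.0504, limma adjusted p = 4.33e-05), and its 6 h difference of 0.07 was not called. DNAJA1, another HSP40, fell by 0.19, and DNAJB4 stood at -0.23 with overlapping arrays and was not called. DNAJA1 lost its call in 4 settings, arrays centred on their medians among them.

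The HSP90 pair differed in whether it was called. HSP90AB1, the constitutive form, ran from 8130.4 to 8263 on 72 h arrays, from 9714 to 10033 on 6 h arrays and from 9585 to 10354 on DMSO arrays, so the 72 h arrays were lower without overlap. It fell by 0.28 log2 units (SE 0.0325, limma adjusted p = 1.69e-05). HSP90AA1, the inducible form, read 11464, 9675 and 10415 at 72 h, 10516, 12059 and 11561 at 6 h, and 11211, 11202 and 11222 on DMSO arrays. The groups overlapped, and the ratio of 72 h to DMSO had a 95% interval of 0.864 to 1.01 (limma adjusted p = 0.222). Whether the change of HSP90AB1 differed from that of HSP90AA1 was not tested. Of the factors that assist them, the HSP110 genes HSPH1 and HSPA4 fell by 0.27 and 0.11, BAG3 stood at -0.09, the HSP70 to HSP90 adaptor STIP1 at -0.10 and the HSP90 cochaperone CHORDC1 at -0.07, the last 3 not called. HSPA4 was called in 5 of 21 alternative settings.

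The HSP70 genes of the list were read by probe sets they share with other genes. Of the 3 probe sets that the platform table lists for HSPA1A and HSPA1B together (1 of them also for HSPA1L), stress-inducible HSP70 genes, the dimmest read 1696, 1914 and 1813 on 72 h arrays, 1819.7, 2111 and 1933 on 6 h arrays, and 1333, 1503 and 1417 on DMSO arrays. Both treated groups lay above every DMSO array and overlapped each other. The set rose 1.28-fold at 72 h (limma adjusted p = 0.00131 over probe sets) and 1.38-fold at 6 h (limma adjusted p = 0.00315). The brightest of the 3 rose 1.13-fold at 72 h and 1.24-fold at 6 h, and the set that also lists HSPA1L 1.18-fold at 72 h and 1.35-fold at 6 h. For comparison, 19.8% of all tested probe sets were called at 72 h and 0.194% at 6 h. All 3 lost the 6 h call when arrays were centred on their medians or when no mean-variance trend was used. Under both of these settings the brightest set lost its 72 h call too. Leaving out both 72 h arrays with the lower upper quartile ended the 72 h calls of all 3. The signal cannot be assigned to 1 of the genes.

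HSPA8, the constitutive HSP70, shares its 4 probe sets with the snoRNA genes SNORD14C and SNORD14D, which lie within its gene. The dimmest of them read 9597, 9572 and 9074 at 72 h, 11250.2, 11714 and 11795 at 6 h, and 10989, 10989 and 11161 on DMSO arrays. The 72 h arrays were the lowest, without overlap. It fell by 0.23 log2 units (limma adjusted p = 0.00016), 2 others fell by 0.19 and 0.15, and the remaining set stood at 0.07 and was not called. Centring arrays on their medians removed these 3 calls. So at 72 h the probe sets listed for HSPA1A and HSPA1B were higher than on DMSO arrays, and 3 of the 4 of HSPA8 were lower. HSPA6, another inducible HSP70 gene, which is outside the list, fell by 1.68 log2 units at 72 h.

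**Figure D2:**
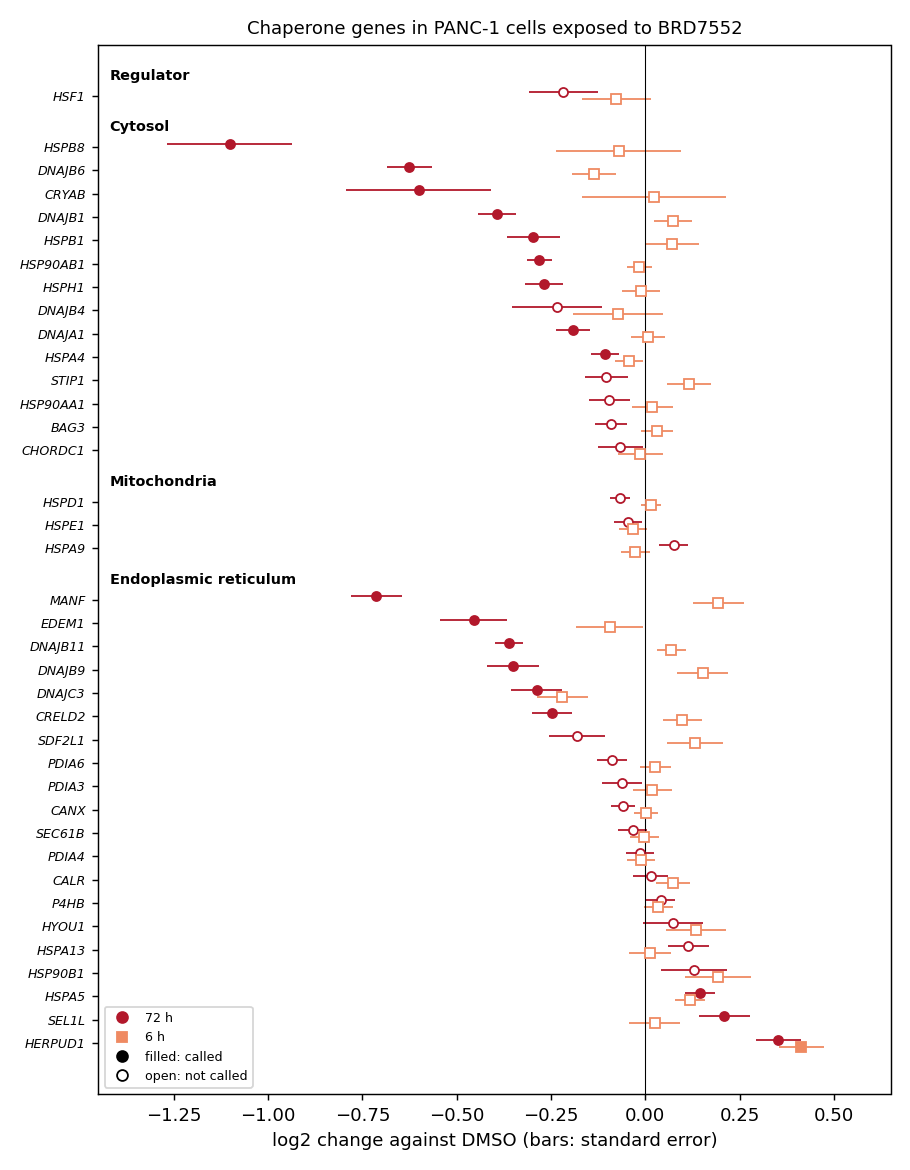
Log2 change against DMSO (x axis) of the 38 tested genes, ordered by compartment and by the 72 h value (y axis). Circles are 72 h and squares 6 h, bars are standard errors of the limma estimate, and filled symbols were called: 18 circles and 1 square, HERPUD1.

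In the ER the genes divided. HERPUD1, a membrane protein of ER-associated degradation (the route that sends misfolded ER proteins to the proteasome), read 625, 636 and 683 on 72 h arrays, 626, 702 and 701 on 6 h arrays, and 519, 493 and 509 on DMSO arrays. All 6 treated arrays were above the DMSO arrays, and the treated groups overlapped. HERPUD1 rose by 0.35 log2 units at 72 h (SE 0.0601, limma adjusted p = 0.000534) and by 0.41 at 6 h (SE 0.0601, 1.33-fold, limma adjusted p = 0.00279). Both calls were lost with the mean of its probe sets, and the 6 h call also with no mean-variance trend. HSPA5, the HSP70 of the ER that also restrains the stress sensors, read 5467, 5547 and 5616 at 72 h, 5071, 5616 and 5656 at 6 h, and 4951, 5083 and 5004 on DMSO arrays. The 72 h arrays were above DMSO without overlap, while 6 h replicate 1 lay among the DMSO values. HSPA5 rose by 0.15 log2 units at 72 h, a 1.11-fold change (SE 0.04, limma adjusted p = 0.014). The 6 h difference of 0.12 was not called (limma adjusted p = 0.567), and was called without 6 h replicate 1. The 72 h call was lost in 5 of 21 settings: arrays centred on their medians, the mean of its probe sets (0.02 log2 units), no mean-variance trend, without DMSO replicate 1, and without both 72 h arrays of lower upper quartile. SEL1L, the adaptor of the HRD1 ubiquitin ligase, read 505, 504 and 440.4 at 72 h, 404, 435 and 435 at 6 h, and 412, 435 and 405 on DMSO arrays. Arrays of the 72 h group lay above all others, replicate 3 by a narrow margin. SEL1L rose by 0.21 (SE 0.0676, limma adjusted p = 0.0328), but 9 of 21 alternative settings removed the call.

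Other large ER chaperones stayed uncalled. HSP90B1, the HSP90 of the ER, read 1052, 831 and 1126 at 72 h, 967, 1131 and 1028 at 6 h, and 918, 905 and 905 on DMSO arrays. The 72 h arrays fell on both sides of the DMSO values, and the 6 h arrays were above them. The log2 difference at 72 h was 0.13 (SE 0.0873, limma adjusted p = 0.314), and without 72 h replicate 2 it was called. Both probe sets listed for HSP90B1 and MIR3652 together were not called in any comparison. The nucleotide exchange factor HYOU1 stood at 0.07, the HSP70 relative HSPA13 at 0.11, the lectin chaperones CALR and CANX at 0.01 and -0.06, and the disulfide isomerases PDIA3, PDIA4, PDIA6 and P4HB between -0.09 and 0.04. SEC61B, a subunit of the channel through which new proteins enter the ER, stood at -0.03.

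Of the 6 ER genes that fell, 3 were HSP40 genes. MANF, a small secreted protein of the stressed ER, read 663, 588 and 531 on 72 h arrays, 1179, 1089 and 1065 on 6 h arrays, and 975.4, 974 and 961 on DMSO arrays. The 6 h arrays were above DMSO and the 72 h arrays below it, with no overlap. MANF fell by 0.71 log2 units at 72 h (SE 0.0684, limma adjusted p = 2.83e-06), to 0.61 of the DMSO level. Its 6 h difference was 0.19 (limma adjusted p = 0.638). EDEM1, which directs misfolded glycoproteins to degradation, read 272, 224 and 212 at 72 h, 293, 299 and 313 at 6 h, and 334, 327 and 304 on DMSO arrays. It fell by 0.46 (SE 0.0886, limma adjusted p = 0.00146), with 72 h arrays below all others. Leaving out both 72 h arrays with the lower upper quartile took its change to -0.24 and ended the call.

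DNAJB9, an HSP40 of the ER, read 462, 440.3 and 400.4 at 72 h, 582, 595 and 669 at 6 h, and 557, 536 and 565 on DMSO arrays. As with MANF, 6 h was highest and 72 h lowest, without overlap. DNAJB9 fell by 0.35 (SE 0.0683, limma adjusted p = 0.00145), and the 6 h difference of 0.15 was not called. DNAJB11, an HSP40 that assists BiP, ran from 1344 to 1397 at 72 h, from 1841 to 1849.6 at 6 h and from 1737 to 1798.5 on DMSO arrays, and fell by 0.36. DNAJC3, another HSP40 of the ER, fell by 0.29, and CRELD2, an ER protein with isomerase-like motifs, by 0.25. Both of these lost the call when arrays were centred on their medians, and they and DNAJB9 lost it without both 72 h arrays of lower upper quartile. SDF2L1, a partner of ER HSP40 proteins, read 493, 426 and 398 at 72 h, 569, 531 and 532 at 6 h, and 521, 472 and 495 on DMSO arrays. The 72 h and DMSO arrays overlapped, and the difference of -0.18 was not called (limma adjusted p = 0.0883).

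**Figure D3:**
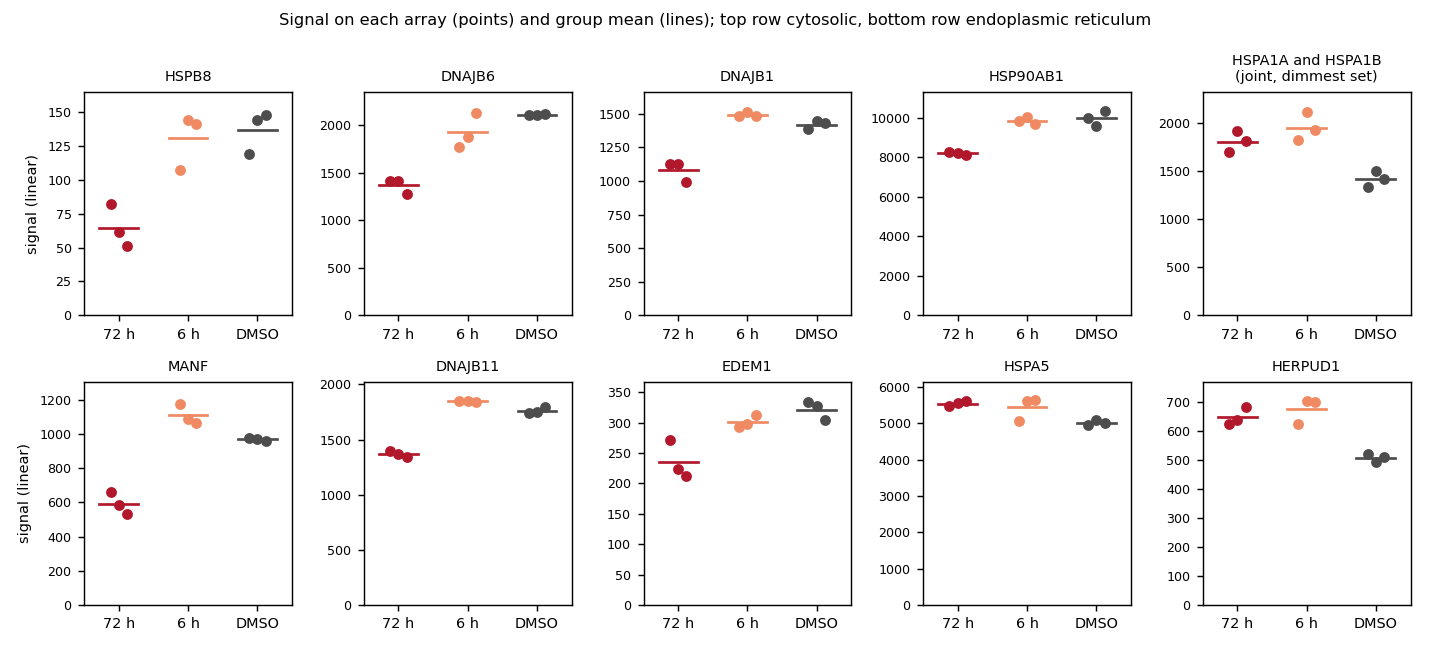
Signal on a linear scale (y axis, from 0) of 9 genes and of the dimmest probe set listed for HSPA1A and HSPA1B together, with a point per array and a line at the mean of each group (x axis, 72 h, 6 h, DMSO). The top row is cytosolic and the bottom row ER: HSPB8, DNAJB6, DNAJB1, HSP90AB1, MANF, DNAJB11 and EDEM1 are lowest at 72 h, while the HSPA1A and HSPA1B set, HSPA5 and HERPUD1 are higher at 72 h than on DMSO arrays.

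The promoters of the members were searched for known elements of both stress responses, and genes that share an element are set side by side. RefSeq windows (GRCh38.p14) of 300 bases, 250 before and 50 after the start, were held for 39 of the 42 genes, and matches on either strand were counted. The heat shock element GAANNTTCNNGAA, 3 alternating units to which HSF1 is known to bind, matched in 6 of 17 cytosolic genes (CHORDC1, DNAJA1, DNAJB6, HSP90AA1, HSP90AB1 and HSPA8), in 1 of 3 mitochondrial genes (HSPD1), in 0 of 19 ER genes, and in 0.608% of 27305 genes. The ER stress response element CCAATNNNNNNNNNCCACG, known for ATF6 and NF-Y, matched in 0 cytosolic and 6 ER genes (CALR, CANX, CRELD2, HSP90B1, HSPA5 and PDIA6) and in 0.0916% of all genes. Its variant, ATTGG and CCACG with 1 base between them, matched in 3 ER genes (HERPUD1, HYOU1 and SDF2L1) and in 0.0696% of all. The core TGACGTG of a further unfolded protein response element matched in 1 cytosolic and 1 ER gene (HSP90AB1, in another RefSeq window than the one printed, and HYOU1, against 2.4% of all), and TGATGNAA, the composite element of ATF4, in HERPUD1 alone (against 4.46% of all). A match describes letters in this window only. The 200 bases before the start are printed 5′ to 3′ on the strand of the gene, with matches in capitals, for genes that share an element and whose transcripts differed. With the ER stress response element, HSPA5 rose and CRELD2 fell at 72 h. HERPUD1, which rose at both times, holds the variant and the ATF4 element.
HSPA5, chr9:125241344-125241543, minus strand: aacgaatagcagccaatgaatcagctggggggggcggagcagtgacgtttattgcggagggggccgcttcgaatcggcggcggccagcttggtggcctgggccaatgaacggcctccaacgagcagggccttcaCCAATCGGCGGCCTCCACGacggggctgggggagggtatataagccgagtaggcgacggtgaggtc
CRELD2, chr22:49918434-49918633, plus strand: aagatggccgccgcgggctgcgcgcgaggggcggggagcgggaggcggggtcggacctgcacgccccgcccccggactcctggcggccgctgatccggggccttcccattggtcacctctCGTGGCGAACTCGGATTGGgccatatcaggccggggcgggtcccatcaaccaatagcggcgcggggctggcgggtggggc
HERPUD1, chr16:56931942-56932141, plus strand: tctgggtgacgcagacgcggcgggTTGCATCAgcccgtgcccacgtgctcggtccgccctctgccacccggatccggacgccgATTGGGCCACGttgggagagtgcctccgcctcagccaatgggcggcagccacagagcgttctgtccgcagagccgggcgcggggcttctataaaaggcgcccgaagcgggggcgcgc
With the heat shock element, DNAJB6 and HSP90AB1 fell at 72 h, and HSP90AA1 was not called.
DNAJB6, chr7:157336804-157337003, plus strand: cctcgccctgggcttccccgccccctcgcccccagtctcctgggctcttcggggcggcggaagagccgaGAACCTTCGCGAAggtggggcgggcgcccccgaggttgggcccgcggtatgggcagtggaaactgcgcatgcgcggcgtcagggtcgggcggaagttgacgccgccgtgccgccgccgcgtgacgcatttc
HSP90AB1, chr6:44247743-44247942, plus strand: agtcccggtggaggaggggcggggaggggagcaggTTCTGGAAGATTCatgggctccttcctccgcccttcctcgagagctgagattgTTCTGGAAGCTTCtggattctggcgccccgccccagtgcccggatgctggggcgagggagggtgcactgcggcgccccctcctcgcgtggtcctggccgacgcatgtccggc
HSP90AA1, chr14:102087045-102087244, minus strand: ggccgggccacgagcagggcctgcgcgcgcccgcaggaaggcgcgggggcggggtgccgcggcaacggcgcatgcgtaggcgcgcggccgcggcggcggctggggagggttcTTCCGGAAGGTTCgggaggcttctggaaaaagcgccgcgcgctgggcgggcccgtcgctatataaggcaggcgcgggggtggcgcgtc

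Of the 5 cytosolic genes with a heat shock element that had a probe set of their own, DNAJA1, DNAJB6 and HSP90AB1 fell at 72 h, while HSP90AA1 and CHORDC1 stood at -0.10 and -0.07. With or without the element, 9 of the 14 tested cytosolic genes fell, and of the 20 ER genes 3 rose and 6 fell. Over all genes tested 18.3% fell and 8.33% rose. A link between an element and a change was not tested. Of the 6 genes with the ER stress response element, HSPA5 rose, CRELD2 fell, and CALR, CANX, HSP90B1 and PDIA6 lay between -0.09 and 0.13. Of the 3 with the variant, HERPUD1 rose, HYOU1 stood at 0.07 and SDF2L1 at -0.18. The strongest fall in the ER, that of MANF, came from a gene with no match to any of these elements in its window. The same held for HSPB8 in the cytosol.

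Set directly against 6 h, the 72 h arrays were lower for 9 of 14 cytosolic, 6 of 20 ER and 1 of 3 mitochondrial genes, and higher for 0 of the 38, where 16.7% of all genes were lower and 7.28% higher. In either direction 20 of the 38 had an unadjusted p under 0.05, as did 4493 of all 12678 genes. The largest falls were HSPB8 at -1.03 (limma adjusted p = 0.000426), MANF at -0.91 (limma adjusted p = 4.05e-07) and DNAJB9 at -0.50 (limma adjusted p = 0.000108). CRYAB was called too (limma adjusted p = 0.0282), with a 72 h mean under the floor and no measured size. STIP1 and SDF2L1 were lower by this comparison though not against DMSO, at -0.22 and -0.31. HSPD1, the HSP60 chaperonin of mitochondria, was lower by 0.08, a call that 14 of 21 alternative settings removed. HERPUD1 stood at -0.06 and HSPA5 at 0.03 between the times, both uncalled. The median difference was -0.24 in the cytosol and -0.063 in the ER, beside -0.06 over all genes tested. In probe sets, 17.5% of all were called in this comparison.

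The 38 genes had 89 probe sets of their own, 11 genes having 1 only, and 83 sets passed the floor. Of the 45 sets other than the brightest, 8 had the opposite sign from it at 72 h against DMSO. Of these, 17 belong to genes whose brightest set was called in the fit over probe sets. Among the 17, 7 were called in the same direction, 3 had the opposite sign and 0 were called in the opposite direction. Over all tested probe sets 19.8% were called. A further set of DNAJB1 fell by 0.59, 1 of HSP90AB1 by 0.38, and 2 of HSPH1 by 0.31 and 0.75. Others did not share the call: a set of HSPB8 had a 72 h mean of 16.2, under the floor, 1 of HSP90AB1 stood at -0.17 and 1 of DNAJA1 at -0.01. Sets of DNAJC3 at -0.21 and -0.45 were not called either. In the fit over probe sets the brightest set of HSPA4 was itself not called (limma adjusted p = 0.0666). The 3 other sets of HSPA4, which are not among the 17, lay between -0.04 and 0.03. For genes with smaller rises, the other set of HSPA5 stood at -0.11, and the other sets of SEL1L at 0.05, -0.18 and -0.20, none called. Another 6 sets were called for genes that their brightest set left uncalled, among them 2 of PDIA3, which fell by 0.42 and 0.83, 1 of STIP1, which fell by 0.34, and 1 of P4HB, which rose by 0.18. For DNAJB6, 1 of 2 sets listed together with TMEM135 rose by 0.39 against DMSO while the set of DNAJB6 alone fell. That joint set was also called higher at 72 h than at 6 h, by 0.487 to 0.734 over the alternative settings. The plot of probe sets shows these pairs.

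**Figure D4:**
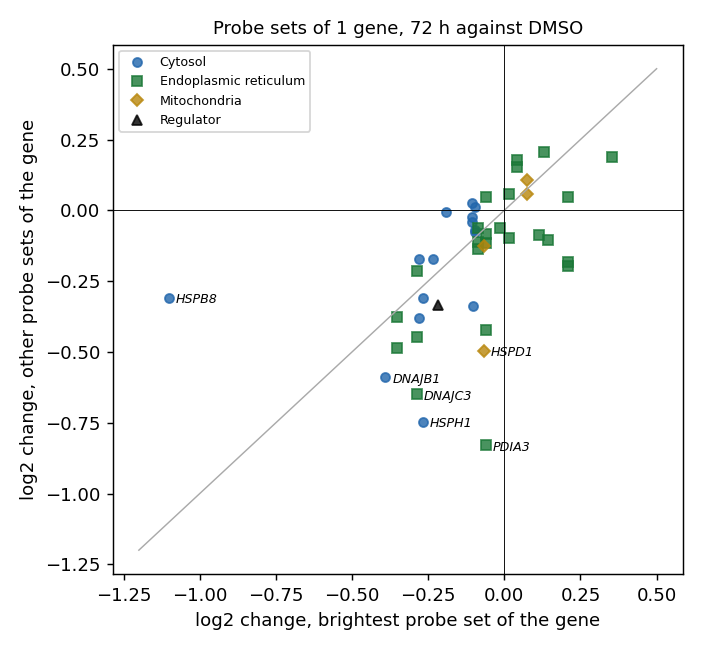
Log2 change at 72 h against DMSO of each further probe set of a gene (y axis) against that of the brightest probe set of the same gene (x axis); the line marks equality and colours mark the compartment. Most of the 45 points lie in the lower left, with HSPH1, DNAJC3, PDIA3 and HSPD1 well below the line and HSPB8 above it.

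Genes outside the 42 that act in the same systems were read from lists of companions. The shares of all genes to hold their counts against are 8.33% higher and 18.3% lower at 72 h, and 0.363% higher and 0.11% lower at 6 h. Of 22 other cytosolic HSP70, HSP40 and BAG genes 3 rose and 5 fell at 72 h against DMSO. HSPA6, a strictly inducible HSP70, read 36.3, 23.2 and 33.0 at 72 h, 63.5, 179 and 101 at 6 h, and 99.7, 123 and 74.4 on DMSO arrays, and fell by 1.68 log2 units (SE 0.29, limma adjusted p = 0.000588). The 6 h arrays spread over both sides of the DMSO values. BAG1, an HSP70 release factor, fell by 0.74, while BAG4 rose by 0.47 and HSPA2 by 0.45. Of 12 HSP90 cochaperones 1 rose, the ubiquitin ligase STUB1 at 0.22, and 6 fell, led by FKBP4 and TOMM34 at -0.38 each. Of 12 subunits of the TRiC chaperonin and its helper prefoldin 2 rose, PFDN4 and PFDN5 at 0.24 and 0.14, and 5 fell, led by CCT2 and CCT7 at -0.20 and -0.15. By limma no gene of these 3 lists was called at 6 h, where 1, 1 and 0 of them had an unadjusted p under 0.05. The medians of the 3 lists at 72 h were -0.055, -0.18 and -0.078, beside -0.062 over all genes.

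On the ER side, where the same 8.33% and 18.3% of all genes rose and fell at 72 h, 3 of 22 folding enzymes rose, FKBP14 and TXNDC12 at 0.33 and 0.32 the largest, and 3 were called lower, among them the BiP exchange factor SIL1 at -0.34 and FKBP7, whose 72 h mean of 16.3 was under the floor, so that no size is given. Of 19 genes of ER-associated degradation 0 rose by limma and 2 fell, AUP1 at -0.27 and SELENOS at -0.20, and in either direction 3 had an unadjusted p under 0.05. Of 16 translocon and signal peptidase genes 1 rose, SSR1 at 0.15, and 5 fell, led by SRPRB at -0.38 and SSR2 at -0.21. Among 12 other mitochondrial chaperones and proteases 5 rose, led by CLPB at 0.25 and LONP1 at 0.24, and 1 fell, TRAP1 at -0.14. The list of unfolded protein response sensors and factors gave these counts: 7 of 15 rose and 4 fell at 72 h, and 4 rose at 6 h. TRIB3, a pseudokinase target of ATF4, rose by 1.19 at 72 h and by 0.77 at 6 h. CHAC1 rose by 1.10 at 72 h and by 0.70 at 6 h, and DDIT3 by 0.38 at 72 h and by 0.72 at 6 h. CREB3L2, an ER-bound transcription factor, fell by 0.82 and PPP1R15A by 0.53 at 72 h. Medians of these 5 lists at 72 h lay between -0.081 and 0.16, beside -0.062 over all genes.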

How the data were processed

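RNA of 9 samples was measured on Affymetrix expression arrays, 1 array per sample. The authors deposited linear intensity values (4.54 to 25052.3) for 54675 probe sets, made with MAS5 per the submitters' processing notes, with its version and scaling target not given in the sources used here. For 59.2% of probe sets at least 2 arrays held exactly the same value, so the summary behind the intensities is uncertain, and ties can make a spread too small. Groups and replicate numbers came from the labels, which name no batch.

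The platform's table gave 1 symbol to 41097 probe sets, several to 1801 and none to 11777. Intensities were log2 transformed without a pseudocount or further normalization. The brightest probe set stood for a gene, and a mean log2 under 4.15 (linear 17.8), the median over probe sets, kept a gene out. Probe sets listed for several genes were kept out of the gene test and given apart. Sets with names ending in _x_at or _s_at may read related transcripts. Linear models with a mean-variance trend were fitted in limma 3.58.1 (R 4.3.3) to all 9 arrays (6 residual degrees of freedom), adjusted by Benjamini-Hochberg over 12678 genes or, for probe sets, over 27303. The fit was checked on simulated data. SE is limma's standard error of a log2 difference.

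The members, the companion lists and the promoter elements were chosen with earlier results of these data known, so counts over them carry no test. Values per array are given for HSF1, HSPA1A, HSPA8, HSP90AA1, DNAJB1, HSPB1, HSPA5, HSP90B1, DNAJB9, HERPUD1 and SDF2L1 whatever their p, and for the called members with the 6 largest rises and falls against DMSO (4 between the times). From each companion list up to 2 called genes per direction are named. HSPA6 is given per array because its fall was the largest in those lists, a choice made after its values were seen, as were the choice of probe sets named and the plotted genes. Alternatives were other scalings, filters, a pseudocount of 16, the mean of a gene's probe sets, a replicate block, no trend, array weights, only the 6 arrays of a comparison, and each array left out in turn.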

Additional observations from a re-analysis of the deposited data

Results flagged for a closer look

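For 16 of the 38 chaperone genes the effect at 72 h differed from the effect at 6 h, tested as 72 h against 6 h in the limma fit over all genes. All of them were lower at 72 h, where 16.7% of all genes were lower and 7.28% higher. In the cytosol the 72 h effect minus the 6 h effect was, in log2 units, -1.03 for HSPB8, -0.62 for CRYAB, -0.49 for DNAJB6, -0.47 for DNAJB1, -0.37 for HSPB1, -0.26 for HSPH1 and for HSP90AB1, -0.22 for STIP1 and -0.2 for DNAJA1. In the ER it was -0.91 for MANF, -0.5 for DNAJB9, -0.43 for DNAJB11, -0.36 for EDEM1, -0.34 for CRELD2 and -0.31 for SDF2L1. For HSPD1 of mitochondria it was -0.08. The value of CRYAB is no measured size, since its 72 h mean of 17.3 lay under the floor of 17.8. Limma adjusted p-values ran from 4.05e-07 for MANF to 0.034 for HSPD1. The 2 effects were -0.71 and 0.19 for MANF, the pair farthest apart in the ER, and -1.10 and -0.07 for HSPB8. Since both effects share the DMSO arrays, only the 72 h and 6 h arrays enter the difference. Besides MANF, signs were opposite for DNAJB9 (-0.35 at 72 h and 0.15 at 6 h), DNAJB11, CRELD2, SDF2L1, HSPB1, DNAJA1, DNAJB1, CRYAB, STIP1 and HSPD1. The 6 h differences of these genes from DMSO were not called.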

How the results depend on the processing

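The 18 calls at 72 h against DMSO became 10 with arrays centred on their medians (1 higher, 9 lower). Calls over all 12678 genes went from 3378 to 2086 with that scaling. Without both 72 h arrays of lower upper quartile, an alternative chosen after seeing the data, only replicate 1 was left at 72 h. The cytosolic median against DMSO was then -0.24 and the ER median -0.033, beside 0.0024 over all genes. Leaving out 1 array in turn gave 15 to 21 calls at 72 h against DMSO, 1 to 2 at 6 h against DMSO and 14 to 19 for 72 h against 6 h. Over all genes the calls were then 2294 to 4224, 28 to 71 and 2125 to 4000. The call at 6 h against DMSO was lost (0 calls) with the mean of a gene's probe sets and with no mean-variance trend, and array weights gave 3 calls. Over all genes the 6 h calls went from 60 to 23 with the mean of probe sets, to 23 with no trend and to 211 with array weights. Without 6 h replicate 1, HSPA5 was the second call. The ER median at 72 h against DMSO was -0.0085 with arrays centred on their medians. For 72 h against 6 h it was -0.034 with centred arrays and with cyclic loess, and -0.13 with the mean of probe sets, where the cytosolic median was -0.29; leaving out 1 array in turn gave ER medians of -0.099 to -0.049. At 6 h against DMSO the ER median was 0.072 with the mean of probe sets and, with 1 array left out in turn, 0.04 to 0.076. SEL1L at 72 h against DMSO turned to -0.032 (limma adjusted p = 0.833) with the mean of its probe sets. Of 50 calls of genes and joint probe sets, 17 held in every setting run, among them DNAJB1, DNAJB6, DNAJB11, HSP90AB1, HSPB8 and MANF at 72 h against DMSO. With the replicate number as a block the counts were 17, 1 and 17, and over all genes 3193, 54 and 2840. Same-numbered arrays did not deviate together (correlations of -0.259 to 0.202), so they were not treated as pairs. The cause of these changes was not tested. The number of arrays limits precision, and CRYAB and other dim genes are limited by signal near the floor.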
